A study of Mus musculus with 6 samples.

Results

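The cytosolic ribosomal protein genes were taken from the deposited count table as the rows named Rpl or Rps followed by a number, together with the stalk genes Rplp0 to Rplp2 and Rpsa, without the Rps6k kinases and the rows whose names end in -ps. This gave 89 of 55453 rows, 53 of the large and 36 of the small subunit. RNA came from single mouse aortae whose adventitia and endothelium had been taken off, and was sequenced as stranded mRNA libraries. Every mouse carried Itga8-CreERT2, in which the integrin gene Itga8 drives a Cre recombinase that tamoxifen activates, so that Srf is recombined only in cells that express Itga8. Every mouse also received 5 daily intraperitoneal doses of 33 mg/kg tamoxifen, and tissue was collected 10 days after the last one. The control group was heterozygous for floxed Srf (3 libraries, replicates 1 to 3) and the other group was homozygous for it (2 libraries, replicates 2 and 3), so recombined control cells also lack 1 Srf copy. Homozygous replicate 1 was not analysed here. The series' design text says that one homozygous sample was left out as an outlier or a sampling error, so the spread of the homozygous group is that of the samples kept. No source used here gives the age of the mice or the part of Srf that is floxed.

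A ribosome is built from a small subunit, which reads the message, and a large subunit, which forms the peptide bond. Most ribosomal proteins are present once in each ribosome, and their genes are usually expressed in step. Their messenger RNAs usually begin with a terminal oligopyrimidine tract, a run of C and T bases at the start of transcription through which the kinase mTOR, by way of Larp1, tunes their translation and stability. Srf encodes serum response factor, which binds the CArG box in the promoters of smooth muscle and actin cytoskeleton genes. The comparison asks how this gene family stood in aortae that could lose both Srf copies against those that could lose 1.

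Library totals ranged from 26177821 to 34311855 counts, and levels are given in CPM, counts scaled to a common library size after TMM normalization. Srf measured 56.1, 64.4 and 68.3 CPM in heterozygous replicates 1, 2 and 3 and 45.0 and 38.6 CPM in homozygous replicates 2 and 3, the order used for all values that follow. Its groups did not overlap, with a log2 fold change (homozygous over heterozygous throughout) of -0.59 (SE 0.122). The adjusted p was 0.115 by edgeR and 0.00373 by DESeq2. All 10 smooth muscle markers examined were detected in each library, and their sum was 27184 to 28625 CPM in heterozygous and 16144 to 16664 CPM in homozygous tissue. Heterozygous replicate 3 held the least skeletal muscle marker RNA, 19.3 CPM, where the other libraries held 335 CPM or more.

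Transcripts of nearly all expressed ribosomal proteins stood slightly lower in the homozygous aortae, by a similar amount in both subunits. Of the 82 members with enough counts to be tested, 79 had a log2 fold change below 0, where 52.8% of all 18192 genes tested did. The median over these 82 was -0.25, a level 15.6% lower, against -0.02 over all genes tested, and 73 of them lay between -0.40 and -0.10. For 72 members both homozygous libraries lay below all 3 heterozygous libraries (18.2% of all genes tested did so), and for 2, Rps4l and Rpl3l, both lay above (17.4% of all genes tested). The groups of the other 8 overlapped: Rplp2, Rpl24, Rpl29, Rps10, Rps19 and the paralogs Rpl7l1, Rpl22l1 and Rps27l.

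No single member passed the test over all genes. The edgeR quasi-likelihood test called 0 members at an adjusted p under 0.05, as it called 0% of all genes higher and 0% lower, and the members' adjusted p values ran from 0.129 to 0.983. At an unadjusted p under 0.05 it gave 52 members lower (6.75% of all genes) and 1, Rpl3l, higher (9.04% of all genes). DESeq2 called 12 members lower (2.61% of the 15741 genes it gave an adjusted p) and 0 higher (3.33% of those genes). These 12 were Rpl3, Rpl4, Rpl10, Rpl12, Rpl14 and Rpl37a of the large and Rps3, Rps14, Rps16, Rps20, Rps21 and Rps23 of the small subunit. limma-voom called 0 members (0.0055% of all genes lower, 0% higher) and gave 53 lower at an unadjusted p under 0.05 (6.59% of all genes). The edgeR count of 52 became 25 (5.96% of all genes), 22 (4.95%) or 53 (6.52%) when heterozygous replicate 1, 2 or 3 was left out. It was 25 (4.53% of all genes) when libraries were scaled by their totals alone. Leaving out a homozygous library leaves 1 in that group. Counts of those fits enter only the ranges given with the alternatives, and nothing is concluded from them.

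The family took 0.945%, 0.931% and 0.869% of all counts in heterozygous replicates 1, 2 and 3 and 0.805% and 0.787% in homozygous replicates 2 and 3. The 95% Wilson interval of heterozygous replicate 3, the smallest library, was 0.865% to 0.873%, so counting error was small beside the distance between libraries. The homozygous libraries were the lowest, and heterozygous replicate 3 lay nearest to them. Fewer cells of a type and less RNA per cell cannot be told apart in bulk tissue. The share of mitochondrially encoded genes was 3.95%, 4.38% and 5.71% in the heterozygous and 7.95% and 7.36% in the homozygous libraries. With those genes left out of the total, the family's shares were 0.984%, 0.973% and 0.922% against 0.874% and 0.850%, still without overlap. On the TMM scale the summed level was 9286 ± 214 CPM (SD, n = 3) in heterozygous and 7792 ± 122 CPM (SD, n = 2) in homozygous tissue, a ratio of 0.839. Homozygous replicate 3 held the lowest level of the 5 libraries for 39 members and homozygous replicate 2 for 37, while heterozygous replicate 2 held the highest for 43.

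**Figure D1:**
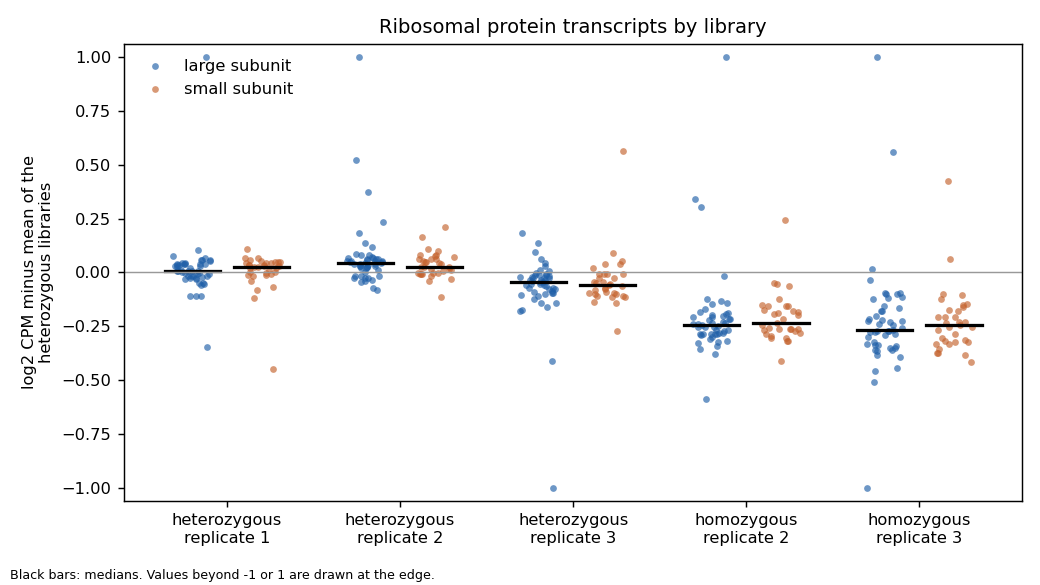
Each point is 1 of the 82 ribosomal protein genes tested in 1 library, as log2 CPM minus its mean over the 3 heterozygous libraries (y axis, log2 units), with large and small subunit genes side by side, medians as black bars and points beyond -1 or 1 drawn at the edge. The medians over both subunits lie at 0.02, 0.04 and -0.05 in heterozygous replicates 1, 2 and 3 and at -0.24 and -0.25 in homozygous replicates 2 and 3.

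The medians of the large and the small subunit lay close together. The median log2 fold change was -0.25 over the 49 large subunit members tested, with the 25th to 75th percentile from -0.30 to -0.19, and -0.23 over the 33 small subunit members, from -0.29 to -0.19. The medians differed by -0.02, large minus small, and without heterozygous replicate 3 the sign of this difference turned (0.01). Summed large subunit CPM was 1.34, 1.35 and 1.36 times the small subunit sum in heterozygous tissue and 1.33 times that sum in both homozygous libraries. Of the large subunit members tested 43, and of the small 29, had homozygous libraries below all heterozygous ones (18.2% of all genes tested did so). The median standard error of a single member's log2 fold change was 0.0930, of like size to the spread of values within a subunit.

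**Figure D2:**
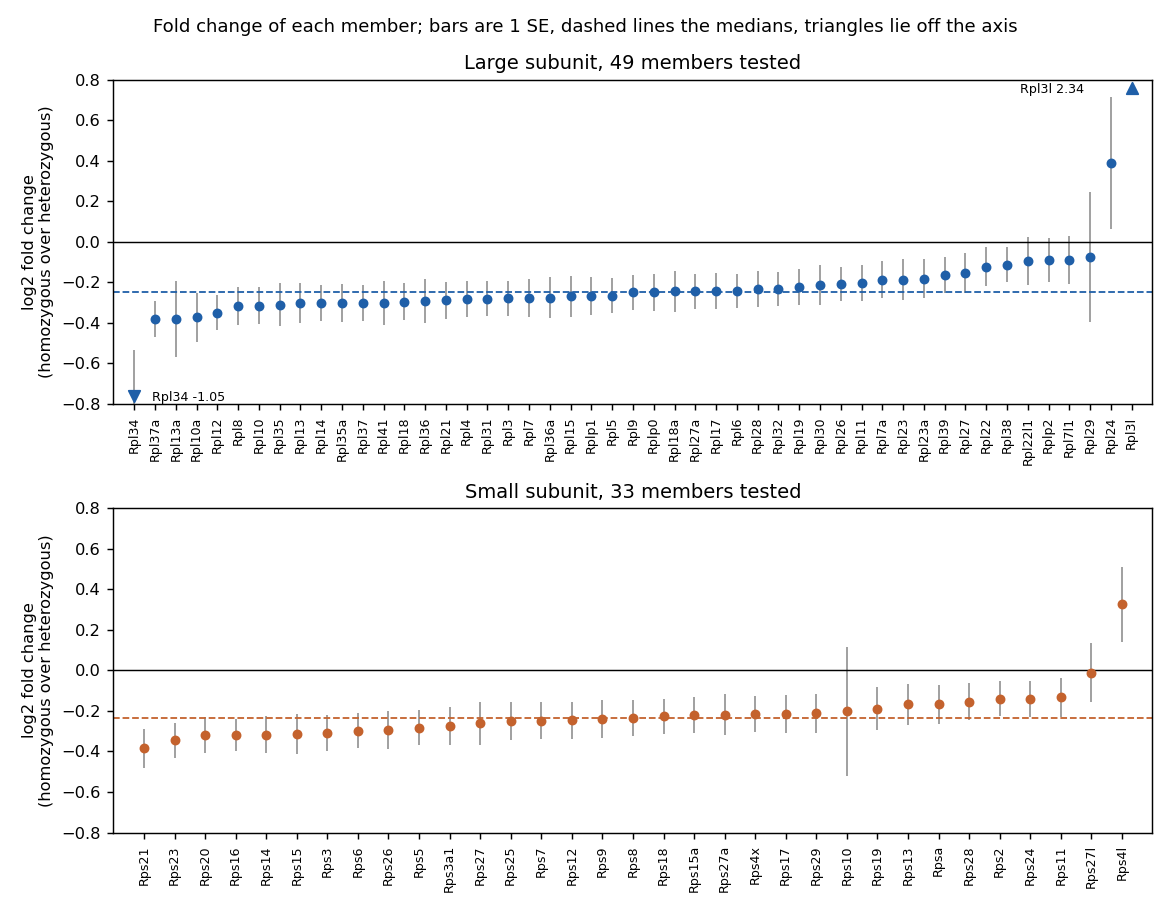
Log2 fold change of each tested member (y axis), homozygous over heterozygous, in rising order within the large (top) and small (bottom) subunit, with bars of 1 SE and the subunit median as a dashed line. Apart from Rpl34 at -1.05 and Rpl3l at 2.34, which lie off the axis, the large subunit points run from -0.38 to 0.39 and the small subunit points from -0.38 to 0.33.

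The sequences at the annotated starts of these genes were searched for the pyrimidine tract. RefSeq promoter windows (GRCm38.p6, 250 bases before to 50 after the annotated start) matched 64 of the 89 members. Printed here, on the gene strand, are the 20 bases before and the first 10 bases from the start, with the longest run of at least 8 pyrimidines (C or T) in capitals. Rps6, Rps27, Rplp2 and Rpl4 have such a run, Rpl34 has it at both of its annotated starts, and Rpl37a, Rps23 and Rpl3l have none there, which sets members with and without the run side by side. Some runs, such as that of Rpl4, end before the annotated start.
Rps6, chr4:86857358-86857387, minus strand: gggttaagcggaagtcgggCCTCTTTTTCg
Rps27, chr3:90213639-90213668, minus strand: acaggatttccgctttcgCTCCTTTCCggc
Rplp2, chr7:141447631-141447660, plus strand: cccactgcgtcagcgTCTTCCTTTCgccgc
Rpl4, chr9:64173367-64173396, plus strand: agTCTTTCCTTTTCCTgtgggagcagccgg
Rpl34, upstream start, chr3:130730389-130730418, minus strand: cgcgccgCCTTCCCTgacgtacttcctgtc
Rpl34, downstream start, chr3:130730328-130730357, minus strand: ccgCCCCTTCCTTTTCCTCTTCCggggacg
Rpl37a, chr1:72711240-72711269, plus strand: gtcacttccgctcgccggtctaaaaccgcg
Rps23, chr13:90923102-90923131, plus strand: acggggccttcggctgggcggggcttcccg
Rpl3l, chr17:24727806-24727835, plus strand: cagctgagtgttctagctctgtcatttgac

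A run of at least 8 pyrimidines within 20 bases of the start, read on the gene strand, was found in 34 of 64 members (53.1%) and in 23.7% of all 27025 genes with a promoter window, and the other members had none. The 32 tested members with a run had a median log2 fold change of -0.25, and so did the 29 tested members without one. CCGGAA, held by binding sites of ETS factors and read on both strands, was in 54.7% of members and 16.7% of all genes. AAGATGGC, held by YY1 sites and read on both strands, was in 9.38% of members and 3.19% of all genes. GGGCGG, bound by SP factors and read on both strands, was in 60.9% of members and 38.2% of all genes, and TATAAA on the gene strand in 10.9% and 9.77%. Members with and without CCGGAA both had a median log2 fold change of -0.25, and the medians were -0.24 with and -0.25 without AAGATGGC. For GGGCGG the median was -0.27 over 38 tested members with it and -0.24 over 23 without, and for TATAAA -0.16 over 6 with it and -0.25 over 55 without. Overlaps between motifs were not removed, and a match describes the letters only.

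The CArG box was found in the window of 1 member, Rpl10a (1.56% of members), against 1.81% of all genes with a window. Its match lies 182 bases before the start and is in capitals here.
Rpl10a, chr17:28328279-28328308, plus strand: gggctcatcaCCAAATTAGGcgatgacgga
Rpl10a, a large subunit protein, had 65.9, 67.6 and 80.7 CPM in heterozygous and 58.4 and 51.9 CPM in homozygous tissue. The groups did not overlap, and the log2 fold change was -0.37 (SE 0.121, edgeR adjusted p 0.215). Only 12.9% of the 100-base words of its transcript are absent from transcripts of other genes, so its counts may include reads of copies.

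The most abundant members per length were Rplp1 in the large and Rps29 in the small subunit, at 418 and 341 CPM per kilobase of transcript averaged over the 5 libraries. Rpl9 (262) and Rpl4 (246) followed in the large and Rps12 (319.9) and Rps27 (304) in the small subunit, in the same unit. With merged exon length in place of the principal transcript Rplp1 stayed first, but Rps15 (222) passed Rps29 (192), and Rpl9, Rps12 and Rps27 left the first 3 of their subunits. Rplp1, an acidic protein of the ribosomal stalk that recruits elongation factors, had 219, 232 and 220.1 CPM in heterozygous and 195 and 176 CPM in homozygous tissue. Its groups did not overlap, with a log2 fold change of -0.27 (SE 0.0954, edgeR adjusted p 0.249). Rpl4, a core protein of the large subunit, had 419, 400.1 and 404 CPM in heterozygous and 335 and 336 CPM in homozygous tissue. Both homozygous libraries lay well below the rest, with a log2 fold change of -0.28 (SE 0.0899) and an adjusted p of 0.211 by edgeR and 0.0323 by DESeq2. The log2 fold change was -0.25 (SE 0.0878) for Rpl9, -0.25 (SE 0.0911) for Rps12, -0.21 (SE 0.0968) for Rps29 and -0.26 (SE 0.104) for Rps27. In each of these 4 the homozygous libraries lay below all heterozygous ones. Only 12.99% of the words of Rpl9, 18.4% of those of Rps12 and 1.63% of those of Rps27 are unique to the gene, so the levels of these 3 are uncertain.

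Among the other stalk proteins, Rplp0, which anchors the stalk, had 282, 295 and 286 CPM in heterozygous and 250.4 and 234 CPM in homozygous tissue. The groups did not overlap and the log2 fold change was -0.25 (SE 0.0911, edgeR adjusted p 0.258). Rplp2, the partner of Rplp1, had 115, 136 and 122 CPM in heterozygous and 123 and 110.5 CPM in homozygous tissue. Its groups overlapped, with a log2 fold change of -0.09 (SE 0.109, edgeR adjusted p 0.735). Whether Rplp2 differs from Rplp1 in its response was not tested.

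In the small subunit Rps21, Rps23 and Rps20 had the most negative values. Rps21, a small protein of the subunit body, had 104, 103 and 92.2 CPM in heterozygous and 74.9 and 78.0 CPM in homozygous tissue. The groups were well apart, with a log2 fold change of -0.38 (SE 0.0964) and an adjusted p of 0.145 by edgeR and 0.0221 by DESeq2, and Rps21 shares 0 of its 100-base words with other genes. Rps23, a protein of the decoding centre, had 112, 107 and 104 CPM in heterozygous and 86.6 and 83.2 CPM in homozygous tissue, a log2 fold change of -0.35 (SE 0.0875, adjusted p 0.147 by edgeR and 0.0183 by DESeq2). Rps20 had 129, 129 and 132 CPM in heterozygous and 109 and 99.9 CPM in homozygous tissue, a log2 fold change of -0.32 (SE 0.0891, adjusted p 0.171 by edgeR and 0.0355 by DESeq2). The libraries of each group lay close together for both genes, with a gap between the groups.

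Rps6, the substrate of the S6 kinases downstream of mTOR, had 90.3, 87.6 and 86.4 CPM in heterozygous and 73.6 and 69.8 CPM in homozygous tissue. The groups did not overlap, with a log2 fold change of -0.30 (SE 0.0856, edgeR adjusted p 0.180), and 16.4% of its words are unique to it. Rpsa, a small subunit protein also known as the laminin receptor, had 221, 232 and 248 CPM in heterozygous and 214 and 202 CPM in homozygous tissue. The groups were adjacent without overlap and the log2 fold change was -0.17 (SE 0.0971, edgeR adjusted p 0.464). Rps3, which lines the entry of the message channel and shares 0 words with other genes, had 227, 240.3 and 223 CPM in heterozygous and 186 and 185 CPM in homozygous tissue. Its groups were apart, with a log2 fold change of -0.31 (SE 0.0899) and an adjusted p of 0.181 by edgeR and 0.0343 by DESeq2.

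Rps19, Rpl5 and Rpl11 are mutated in the human red cell disorder Diamond-Blackfan anaemia, and Rpl5 and Rpl11 bind Mdm2, the inhibitor of p53. Rps19 had 92.1, 97.7 and 100.4 CPM in heterozygous and 92.4 and 77.4 CPM in homozygous tissue. Homozygous replicate 2 lay within the heterozygous range, and the log2 fold change was -0.19 (SE 0.108, edgeR adjusted p 0.457). Rpl5 had 129, 131 and 127 CPM against 104 and 110.5 CPM (log2 fold change -0.27, SE 0.0868), and Rpl11 had 113, 118 and 109.8 CPM against 95.5 and 102 CPM (log2 fold change -0.20, SE 0.0893). Neither of the latter overlapped between groups, and 8.89% of the words of Rpl5 and 40.3% of those of Rpl11 are unique.

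The X chromosome holds 4 tested members. Rps4x had 248, 243 and 231 CPM in heterozygous and 209.7 and 205 CPM in homozygous tissue, a log2 fold change of -0.22 (SE 0.0897). Rpl10 gave -0.32 (SE 0.0916), Rpl36a -0.28 (SE 0.0999) and Rpl39 -0.16 (SE 0.0898) on the same scale, each without overlap between groups.

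The large subunit gene Rpl37a had the lowest edgeR adjusted p of the members, 0.129. It measured 82.6, 81.6 and 83.3 CPM in heterozygous and 66.0 and 60.6 CPM in homozygous tissue, group means of 82.5 ± 0.839 (SD, n = 3) and 63.3 ± 3.86 (SD, n = 2). Its log2 fold change was -0.38 (SE 0.0876), and DESeq2 gave an adjusted p of 0.0106. Rpl12, a protein at the base of the stalk, had the lowest DESeq2 adjusted p, 0.00662. It measured 164, 159 and 159.9 CPM in heterozygous and 124 and 129 CPM in homozygous tissue, a log2 fold change of -0.35 (SE 0.0861). For both genes the distance between the groups was several times the spread within them.

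Rpl34 had the most negative value of the family, and 1 library carried it. Rpl34 (GRCm38 chromosome 3, 130726831 to 130730398, 5 exons, minus strand) measured 74.2, 74.6 and 68.8 CPM in the heterozygous libraries, 57.1 CPM in homozygous replicate 2 and 13.1 CPM in homozygous replicate 3. Homozygous replicate 2 was thus near the rest of the family and homozygous replicate 3 far below it. The log2 fold change was -1.05 (SE 0.514, edgeR adjusted p 0.384), -0.34 without homozygous replicate 3 and -2.47 without homozygous replicate 2. Rpl29 was uneven within both groups, with 19.9, 36.4 and 22.5 CPM in heterozygous and 32.1 and 17.8 CPM in homozygous tissue and a log2 fold change of -0.07 (SE 0.320). It shares words with 27 other genes, 24 of them annotated as pseudogenes.

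Of the 7 paralogs named after a core protein 5 were tested. At an unadjusted p under 0.05 in edgeR 0 of these 5 were lower (6.75% of all genes) and 1, Rpl3l, was higher (9.04% of all genes). With only 5 genes, 0 lower lies near the share over all genes. Rps27l, a copy of Rps27 that responds to p53, had 23.7, 24.7 and 18.3 CPM in heterozygous and 21.2 and 23.0 CPM in homozygous tissue. Its groups overlapped, and its log2 fold change of -0.01 (SE 0.147) took either sign across the alternatives run. Rpl22l1, the paralog of Rpl22, had 22.0, 22.8 and 19.7 CPM against 18.6 and 21.7 CPM (log2 fold change -0.09, SE 0.119). Rpl7l1, which is known from large subunit assembly, had 42.3, 48.8 and 38.5 CPM against 39.2 and 41.9 CPM (log2 fold change -0.09, SE 0.119). Groups overlapped for both, and their signs turned when single libraries were left out (Rpl22l1 up to 0.0091 and Rpl7l1 up to 0.022). Rps4l, annotated as a transcribed processed pseudogene, had 3.66, 4.60 and 3.74 CPM against 4.70 and 5.34 CPM (log2 fold change 0.33, SE 0.185, edgeR adjusted p 0.450), with both homozygous libraries highest. Rpl10l, known from testis, had 0 counts in all 5 libraries, and Rpl39l had 0 to 2.

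Rpl3l, the form of Rpl3 found in striated muscle, was the member with the largest positive value. Rpl3l (GRCm38 chromosome 17, 24727820 to 24736143, 10 exons, plus strand) measured 1.69, 0.979 and 0.0398 CPM in heterozygous and 2.23 and 7.22 CPM in homozygous tissue. Both homozygous libraries were above the heterozygous ones, homozygous replicate 3 was far above the rest, and heterozygous replicate 3 held 1 count. The log2 fold change was 2.34 (SE 0.837), with an adjusted p of 0.250 by edgeR and 0.489 by DESeq2, and it was 1.26 without homozygous replicate 3 and 3.11 without heterozygous replicate 1. The 12 skeletal muscle markers summed to 694, 335 and 19.3 CPM in heterozygous and 1029 and 2778 CPM in homozygous tissue, which puts the 5 libraries in the same order as Rpl3l. Of these markers Myh4 and Pvalb had 0 counts in heterozygous replicate 3, and the part of skeletal muscle RNA in the Rpl3l values was not tested. Rpl3 itself had 229, 216 and 222 CPM in heterozygous and 182 and 185 CPM in homozygous tissue, a log2 fold change of -0.28 (SE 0.0877) without overlap.

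**Figure D3:**
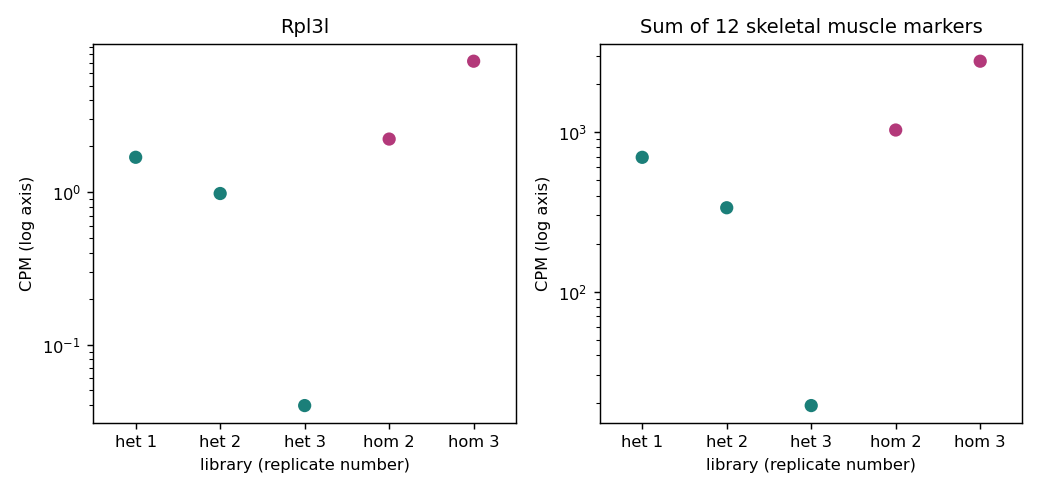
Level of Rpl3l (left) and summed level of the 12 skeletal muscle markers (right) in each library, in CPM on log axes, for heterozygous (het) and homozygous (hom) replicates. In both panels heterozygous replicate 3 is lowest (0.0398 and 19.3 CPM) and homozygous replicate 3 highest (7.22 and 2778 CPM).

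The 3 lowest core members were those whose exons lie largely within another annotated gene. Rpl13a, Rps10 and Rpl24 share 59.3%, 53.6% and 71.5% of their exon bases with another gene on the same strand in GENCODE M21 (Gm45713 with Mir5121, RPS10-NUDT3 and Gm28037 in that order), where Rpl32 shares 15.5% and Rpl19 10.7%. They averaged 9.09, 3.51 and 1.17 CPM per kilobase, below the 17.4 to 418 CPM per kilobase of the other 74 tested members outside the paralog list. The deposited rows of Gm45713, Mir5121 and Gm28037 held 0 counts in all 5 libraries. How the authors' counting treated reads in such shared exons was not given, so the levels of these 3 members are uncertain. Rpl13a had 10.0, 12.2 and 9.19 CPM against 6.93 and 9.18 CPM (log2 fold change -0.38, SE 0.187), with homozygous replicate 3 just below the lowest heterozygous library. Rps10 had 2.31, 2.91 and 4.65 CPM against 3.04 and 2.64 CPM (log2 fold change -0.20, SE 0.316), and Rpl24 had 0.707, 0.890 and 0.517 CPM against 0.848 and 1.01 CPM (log2 fold change 0.39, SE 0.326), both with overlapping groups. The other 74 members are a set defined after the values were seen. The 3 tested members above 0, Rpl24, Rpl3l and Rps4l, fall outside it by this choice. All 74 had a log2 fold change below 0, from -1.05 to -0.07 (52.8% of all genes tested were below 0). Of them 71 had homozygous libraries below all heterozygous ones (18.2% of all genes tested).

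**Figure D4:**
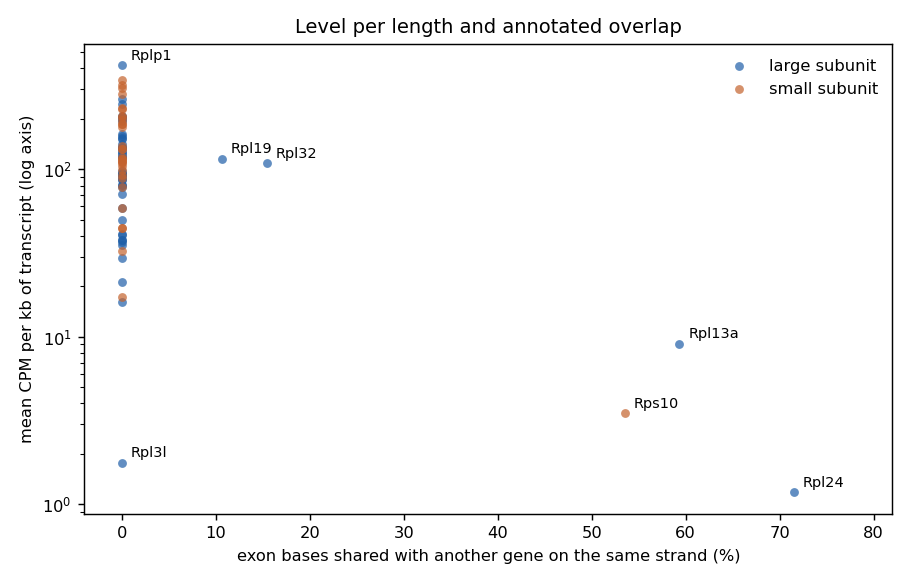
Mean level over the 5 libraries in CPM per kilobase of transcript (y axis, log) of each protein-coding member tested against the percentage of its exon bases shared with another gene on the same strand (x axis). Rpl13a, Rps10 and Rpl24 lie at over 50% overlap and under 10 CPM per kilobase, and Rpl3l is low without overlap.

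Ribosomal protein genes have many processed copies in the mouse genome. Of the 89 members, 80 share 100-base words with a transcript of another gene and 77 with an annotated pseudogene, up to 40 genes for Rpl21. The 51 tested members with at least 50% unique words had a median log2 fold change of -0.24, and the 31 tested members below that share had -0.25. The 305 rows named Rpl or Rps with the ending -ps summed to 19.4, 21.5 and 24.8 CPM in heterozygous and 21.7 and 18.1 CPM in homozygous tissue, with overlapping groups. The rows Rpl32l, Rpl6l, Rps3a2 and Rps3a3 held too few counts to be tested, with 3 to 8 a library for Rpl32l, and Rps12l1 had 0 in all.

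Members with transcripts of up to 1 kb and of 1 to 2 kb gave like values, and few members were longer. The 52 tested members with transcripts of up to 1 kb had a median log2 fold change of -0.23, where all 2203 genes tested of that length had -0.01. The 24 tested members of 1 to 2 kb had a median of -0.26, against 0.00 for all 3875 genes tested of that length. Only 5 tested members had 2 to 4 kb (median -0.27, against -0.01 for all 7077 genes tested of that length). Only 1 exceeded 4 kb, with -0.22, against -0.04 for all 4878 genes tested of that length.

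Among ribosomal proteins whose names fall outside the rule, Rack1 and Fau of the small subunit had values near the median of the family. Rack1, a scaffold on the small subunit, had 273, 275 and 273 CPM in heterozygous and 232 and 228 CPM in homozygous tissue, a log2 fold change of -0.25 (SE 0.0863, edgeR adjusted p 0.236). Fau, made as a fusion with a ubiquitin-like protein, had 60.8, 63.7 and 64.3 CPM against 54.1 and 49.2 CPM (log2 fold change -0.28, SE 0.0899). Neither overlapped between groups. Over the 4 tested genes of this list the median was -0.27. At an unadjusted p under 0.05 in edgeR 2 were lower (6.75% of all genes) and 0 higher (9.04% of all genes), and 0 were called by edgeR after adjustment or by DESeq2.

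Elongation factors and other terminal oligopyrimidine messages had a median log2 fold change of -0.21 over 25 genes. Of these 10 were lower and 0 higher at an unadjusted p under 0.05 in edgeR, where 6.75% of all genes were lower and 9.04% higher. After adjustment 0 passed edgeR, and DESeq2 called 4 lower (2.61% of the genes it gave an adjusted p). Eef1a1, which brings aminoacyl-tRNA to the ribosome, had 1762, 1785 and 1677 CPM in heterozygous and 1429 and 1425 CPM in homozygous tissue, a log2 fold change of -0.29 (SE 0.101). Eef2, the translocation factor, had 1225, 1242 and 1250.2 CPM against 1022 and 948 CPM (log2 fold change -0.33, SE 0.0996). Both had homozygous libraries below all heterozygous ones, with an adjusted p of 0.0351 and 0.0133 by DESeq2 and of 0.245 and 0.193 by edgeR.

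The lists of ribosome production, from nucleolus to initiation, had medians nearer to 0. Nucleolar biogenesis factors had a median log2 fold change of -0.18 over 28 genes, with 2 lower and 0 higher at an unadjusted p under 0.05, where 6.75% of all genes were lower and 9.04% higher. Ncl, nucleolin, had 157, 143 and 152 CPM against 116 and 132 CPM (log2 fold change -0.28, SE 0.101), and Bop1, needed for large subunit processing, gave -0.33 (SE 0.149). Assembly and export factors had a median of -0.10 over 27 genes (2 lower, 0 higher), with Xpo1, the nuclear exporter, at -0.18 (SE 0.173) and Grwd1, a chaperone of Rpl3, at -0.38 (SE 0.214). The RNA polymerase I list had a median of -0.09 over 15 genes (1 lower, 0 higher), with the factors Ubtf at -0.01 (SE 0.0900) and Taf1a at -0.30 (SE 0.0918), and Ubtf turned positive under several alternatives. Initiation factors had a median of -0.09 over 21 genes (1 lower, 0 higher), with Eif4g2 at -0.06 (SE 0.129) and Eif3g at -0.33 (SE 0.0896). The Myc and mTOR list had a median of -0.07 over 23 genes (0 lower, 1 higher), with the Max partners Mxd4 at -0.13 (SE 0.153) and Mycl at 0.40 (SE 0.339). At an unadjusted p under 0.05 the counts of lower genes in these 5 lists are near or below the share over all genes. In the order given, 13 of 28, 7 of 27, 4 of 15, 8 of 21 and 4 of 23 genes were lower without overlap (18.2% of all genes). A log2 fold change below 0 was found for 25, 23, 15, 18 and 15 genes of these lists (52.8% of all genes). In these lists 0 genes passed edgeR after adjustment or DESeq2.

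Mitochondrial ribosomal proteins, which build the separate ribosome of mitochondria, lay on the other side of 0. Their median log2 fold change was 0.16 over 77 genes, 65 of them above 0, with 7 higher and 0 lower at an unadjusted p under 0.05, a share of higher calls like the 9.04% of all genes. The groups did not overlap for 28 that were higher (17.4% of all genes) and 2 that were lower (18.2% of all genes) in homozygous tissue, and 0 passed edgeR after adjustment or DESeq2. Mrps36 gave 0.65 (SE 0.368) and Mrpl24, the most abundant, -0.07 (SE 0.0847). Proteasome subunits had a median of 0.00 over 38 genes, with 1 higher and 0 lower at an unadjusted p under 0.05 and 0 passing edgeR after adjustment or DESeq2. Psmb8, an immunoproteasome subunit, gave 0.41 (SE 0.129) and Psmd2, of the regulatory particle, -0.07 (SE 0.0971). The difference between these lists and the cytosolic ribosomal proteins was not tested.

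**Figure D5:**
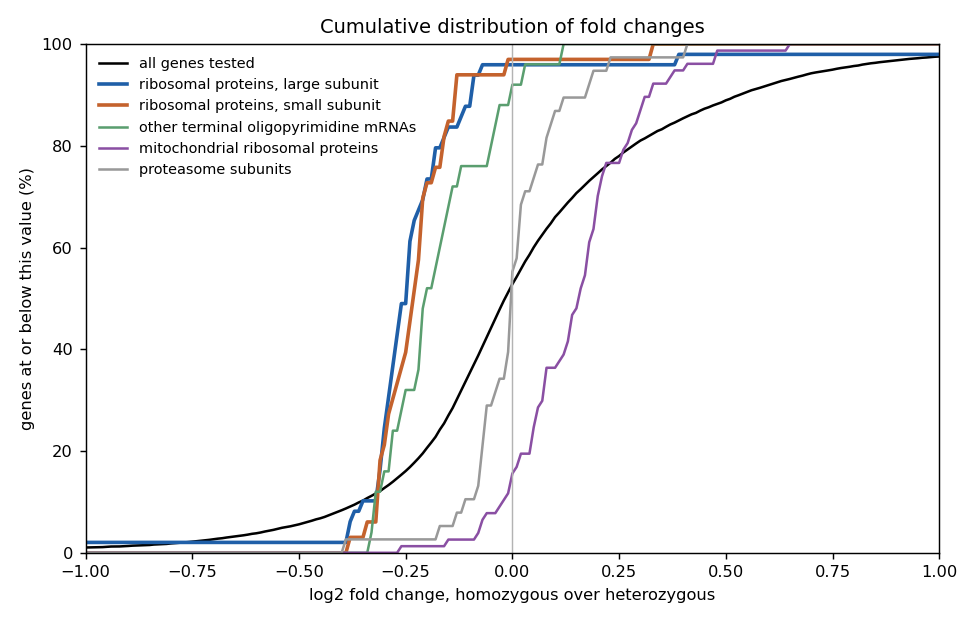
Percentage of genes (y axis) at or below each log2 fold change (x axis, homozygous over heterozygous) for all 18192 genes tested, both ribosomal subunits, the other oligopyrimidine messages, mitochondrial ribosomal proteins and proteasome subunits. Both cytosolic subunits rise left of 0, around medians of -0.25 and -0.23, while mitochondrial ribosomal proteins rise right of 0 around 0.16 and all genes around -0.02.

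Marker sums of several other tissues lay apart between the groups, and others overlapped. Brown adipocyte markers summed to 309 to 747 CPM in heterozygous and 1065 to 1187 CPM in homozygous tissue, with 7 of 8 higher without overlap. Of all genes tested 17.4% were higher without overlap. Adipocyte markers summed to 3327 to 4867 and 6177 to 6596 CPM (10 of 12), macrophage markers to 306 to 424 and 489.6 to 643 CPM (9 of 12), and skeletal muscle markers to 19.3 to 694 and 1029 to 2778 CPM (10 of 12). Adventitial fibroblast markers summed to 1976 to 2712 and 2692 to 3014 CPM, with overlap of the sums (4 of 10). Lymphocyte markers summed to 23.1 to 26.8 and 29.0 to 49.9 CPM (1 of the 5 tested). Endothelial markers summed to 818 to 1081 and 472 to 1214 CPM with overlap, and erythrocyte markers to 37.9 to 297 and 23.9 to 28.9 CPM, lower in homozygous tissue. No marker of these lists was at 0 in every library. The ribosomal protein sum was 9338, 9469.96 and 9051 CPM in heterozygous and 7878 and 7706 CPM in homozygous tissue. The smooth muscle marker sum, 27992, 28625 and 27184 against 16664 and 16144 CPM, put the 5 libraries in the same order. The macrophage marker sum, 353, 306 and 424 against 489.6 and 643 CPM, put them in exactly the reverse order. The part of these tissues in the lower ribosomal protein values was not tested.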

How the data were processed

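The submitters deposited raw whole-number counts per gene for 5 libraries. Their processing notes name GRCm38, Subread 1.6.4 with featureCounts, STAR 2.7.0f and fastp 0.20.0, per the submitters' processing notes in the labels. The annotation release, strand setting and handling of multi-mapped reads: not given in the sources used here. Each aorta was frozen singly, per the labels' protocols, so p-values cover the spread between 5 single samples. Members and lists were chosen with earlier results of these data known.

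Genes passing edgeR's filterByExpr were scaled by TMM and tested with edgeR 4.0.16 (R 4.3.3, quasi-likelihood F test, group as the only term), with Benjamini-Hochberg adjustment over 18192 genes at 0.05. The biological coefficient of variation was 15.8%. DESeq2 1.42.0, limma-voom (limma 3.58.1), other scalings and filters, a replicate block and omission of each library were alternatives. The methods were tested on simulated data. Libraries of one group differed from each other by more than sampling noise.

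The rule for named genes took Srf, the paralogs, Rplp0 to Rplp2, Rpsa, Rps6, the members passing adjustment, per subunit the 3 most abundant per length, up to 5 most positive and 3 most negative members, and per pathway list the largest change and the most abundant gene. Rpl3, Rpl5, Rpl10a, Rpl11, Rpl12, Rpl19, Rpl21, Rpl29, Rpl32, Rps3, Rps10, Rps19, the members on chromosome X, Fau, the untested copies and the DESeq2 calls were added after their values were seen. Of the genes this rule names, 1 from the list of ribosomal proteins outside the name pattern is not reported here. Transcript lengths, exon overlaps and word uniqueness (100 bases) come from GENCODE M21, which matched 18033 tested genes. Level per length uses the principal coding transcript. Intervals cover counting error only.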

Additional observations from a re-analysis of the deposited data

How the results depend on the processing

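The lower level of the family kept its direction under all alternatives run: the median over members lay 0.206 to 0.254 below the median of all genes on the log2 scale. With each library left out, the large subunit median ran from -0.27 to -0.22, the small subunit median from -0.25 to -0.20, their difference from -0.03 to 0.01, members below all heterozygous libraries from 67 to 75, members lower at an unadjusted p under 0.05 from 11 to 53, and adjusted calls stayed at 0. A group left with 1 library is assumed to vary like the other. The lowest unadjusted count comes from such a fit, so no conclusion is drawn from it. With a heterozygous library left out that count was 22 to 53, where 4.95% to 6.52% of all genes were lower. Scaling by library totals, chosen after seeing the data, moved the small subunit median to -0.18 and the unadjusted count to 25 (4.53% of all genes). Adjusted calls became 12 lower with DESeq2, and 1 higher (Rpl3l, adjusted p 0.00117) and 1 lower (Rpl34, adjusted p 0.0149) with edgeR without a low-count filter, which called 982 genes higher and 432 lower of 30400 and tested 87 members. Restriction to members with at least 50% unique words left 33 of 51 lower at an unadjusted p under 0.05 (6.75% of all genes). Of these 51, 44 were lower without overlap (18.2% of all genes). Merged exon length gave a median of 47.4 instead of 110.2 CPM per kilobase.

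With the replicate block, which leaves fewer residual degrees of freedom, 3 of 82 members were lower at an unadjusted p under 0.05 in place of 52, a share no larger than the 4.69% of all genes in that fit. The groups share numbers 2 and 3 only, nothing says that these pair animals, and the differences between those numbers correlated at -0.123 across genes between groups. A crossed block, added after seeing the data, gave 36 (7.26% of all genes) and no adjusted call.

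Of 572 values of single named genes under alternatives, 541 kept direction and call. Rps27l turned to 0.0037 without a filter, 0.00015 with a stricter one, 0.055 with the replicate block, 0.0058 without mitochondrial genes and 0.040 by library totals, and Ubtf to 0.0038, 0.0022 (block), 0.0054 and 0.042 in the same settings apart from the stricter filter. With single libraries left out, Rps27l ran from -0.11 to 0.087, Rpl22l1 from -0.21 to 0.0091, Rpl7l1 from -0.15 to 0.022, Ubtf from -0.033 to 0.035, Mxd4 from -0.22 to 0.037 and Eif4g2 from -0.17 to 0.047.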
